A study of Mus musculus with 15 samples.

Results

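The transcriptomes of primary mouse articular chondrocytes exposed to IWR-1 were compared with those of cells exposed to the vehicle DMSO, over all genes and by pathway. The comparison uses 6 of the 15 libraries of the series, the 3 IWR-1 and the 3 DMSO libraries of the table of drug-treated cells, and libraries with the same replicate number were treated as pairs. Of 24134 genes listed by Entrez gene ID, 13873 passed a filter on low counts and were tested. The cells came from the knee cartilage of ICR mouse pups, a few days old, with no engineered allele, and were used at passage 0. They were kept for 108 h in medium with DMSO alone or with 10 μM IWR-1, and the study describes the replicates as biological. A further set of 3 libraries, from cells given 10 μM XAV939 for the same time, entered the fit and one direct comparison. Read counts on genes ran from 31046712 to 36342916 per DMSO library, from 31502319 to 33961138 per IWR-1 library and from 27438611 to 36615194 per XAV939 library.

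IWR-1 is a small molecule that inhibits tankyrases, enzymes that attach chains of ADP-ribose to target proteins and so mark many of them for destruction. The best known target is axin, the scaffold of the complex that degrades β-catenin, and inhibition of tankyrases therefore dampens Wnt/β-catenin signalling. Tankyrases have other targets, among them regulators of Hippo signalling, glucose transporter traffic and telomeres. In cartilage, Wnt and inflammatory signals are known to favour loss of the chondrocyte phenotype.

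The cells were described by marker genes, in lists made with earlier results of these data known. All 14 chondrocyte markers examined, such as *Col2a1* and *Acan*, were detected, and together they held 29000 to 39500 CPM (counts per 1e6 counts of the library, scaled by the normalization factor) in the DMSO libraries and 99300 to 126000 CPM in the IWR-1 libraries. All 14 are on the study's own cartilage lists, and each of them rose by more than 2-fold. Summed markers of leukocytes reached at most 47.5 CPM, those of endothelium 13.4 CPM and those of skeletal muscle 4.71 CPM in any of the 6 libraries. Other lists were high, so the culture cannot be taken as pure from these sums. Fibroblast markers held 9830 to 10500 CPM with DMSO and 3680 to 4760 CPM with IWR-1. Osteoblast markers, which include *Col1a1*, held 12600 to 16600 and 4970 to 6290 CPM. In bulk RNA, fewer cells of a type cannot be told apart from less RNA per cell. The first principal component held 58.2% of the variance and ordered the libraries from DMSO through XAV939 to IWR-1 without overlap.

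The change was broad and reached both directions. At an adjusted p-value under 0.05 (edgeR quasi-likelihood F test with the replicate number as a block, Benjamini-Hochberg over 13873 genes), 6593 genes (47.5%) differed, 3079 higher (22.2%) and 3514 lower (25.3%). The median log2 fold change of all genes was 0.01 and the median standard error (SE) 0.12. With a further limit of a fold change above 2, 1995 genes (14.4%) remained, 718 higher (5.18%) and 1277 lower (9.2%). Among the calls, 204 genes rose and 307 fell by more than 4-fold. Of the 1995 genes, 1811 (90.8%) are on none of the cartilage, SOX9-target and osteoarthritis lists of the study, and 184 are on them. The lists are short, with 232 cartilage genes, 91 SOX9 targets, and 150 genes raised and 71 lowered in osteoarthritis matched. Most of the 13873 genes are therefore on none of them either, and the share over all genes tested was not computed. The 90.8% thus does not show that the change favoured genes outside the lists. All 1277 lower genes and 717 of the 718 higher genes had the same sign in the 3 replicate pairs. Such agreement is largely set by the selection, because the test used the same pairs and the fold limit applied. The libraries of the groups did not overlap for 51.1% of all genes tested, 24.7% with all IWR-1 libraries above and 26.4% with all below. These percentages are the background for every list below, given as members called of members tested, with the median log2 fold change.

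**Figure D1:**
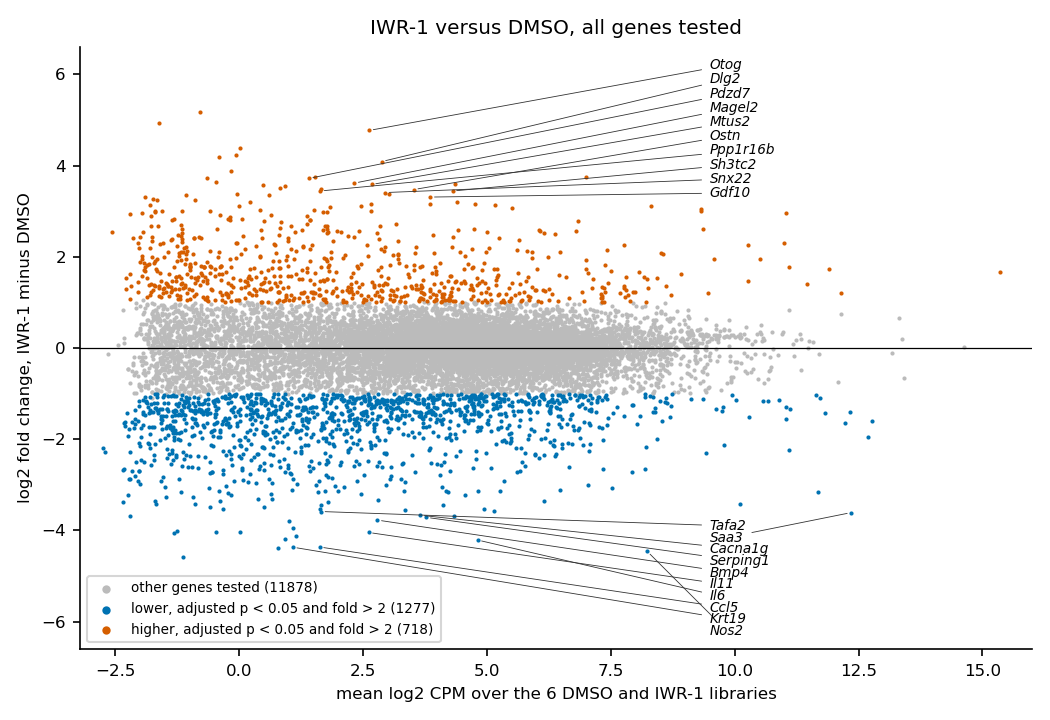
Log2 fold change of each of the 13873 genes, IWR-1 minus DMSO, against its mean log2 CPM over the 6 libraries. Colours mark genes called at an adjusted p-value under 0.05 with a fold change above 2, and names mark the 10 largest rises and falls among genes with at least 10 CPM that are on no list of the study and have the same sign in the 3 pairs. The lower calls (1277) outnumber the higher ones (718).

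The largest rise outside the study's lists was that of *Otog*. It encodes otogelin, a glycoprotein of the acellular membranes of the inner ear, and measured 0.396, 1.95 and 1.54 CPM in DMSO replicates 1 to 3 and 24.6, 44.9 and 33.9 CPM in IWR-1 replicates 1 to 3, a rise of 4.77 on the log2 scale (SE 0.25, adjusted p = 6.09e-08). *Dlg2*, a scaffold of synaptic membranes, went from 1.77 ± 0.552 to 30.7 ± 5.1 CPM (mean ± SD, n = 3), and *Pdzd7*, a scaffold of hair cells, from 0.739 ± 0.478 to 10.1 ± 1.89 CPM. *Ostn*, which encodes the secreted peptide osteocrin, and *Gdf10*, a TGF-β family ligand, rose by 3.48 and 3.31 on the log2 scale. *Magel2*, *Mtus2*, *Sh3tc2*, *Ppp1r16b* and *Snx22* completed the 10 largest rises with log2 fold changes from 3.41 to 3.62. In each of these genes every IWR-1 library lay above every DMSO library. *Pdzd7* and *Snx22* overlap other coding genes (*Sfxn3* and *Lzts2*, and *Ppib*), whose reads the counting may have shared. The same limit holds for *Acaca*, *Srebf1*, *Ctsb*, *Npc1*, *Filip1l*, *Plin4*, *Has1*, *Hspa5*, *Ccne2*, *Plvap*, *Dbp* and *Nr1d1* below. The 10 largest falls were *Nos2*, *Krt19*, *Ccl5*, *Il6*, *Il11*, *Bmp4*, *Serping1*, *Cacna1g*, *Saa3* and *Tafa2*, with log2 fold changes from −4.46 to −3.58. Of these, *Nos2*, *Ccl5*, *Il6*, *Serping1* and *Saa3* belong to the inflammatory lists described next.

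Inflammatory mediators showed the lowest median of the 35 pathway lists. Of 27 tested cytokines, chemokines and enzymes known to depend on NF-κB, a transcription factor activated by interleukin-1 and tumour necrosis factor, 23 fell and 3 rose, and all 23 falls exceeded 2-fold (median −2.12). *Nos2* (gene ID 18126, mm10 chromosome 11, 78920787 to 78960226), the inducible nitric oxide synthase, measured 1610, 1210 and 1430 CPM with DMSO and 59.8, 54.1 and 81.9 CPM with IWR-1. It changed by −4.46 on the log2 scale (SE 0.13, adjusted p = 6.07e-09). *Il6* (gene ID 16193, chromosome 5, 30013114 to 30019975), which encodes interleukin-6, measured 107, 107 and 152 CPM and then 4.74, 5.26 and 11 CPM, a change of −4.21 (SE 0.22, adjusted p = 6.85e-08). The groups did not overlap for either gene.

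*Ptgs2*, the inducible cyclooxygenase of prostaglandin synthesis, fell from 238 ± 91.9 to 22.4 ± 4.47 CPM, and *Cxcl1*, a chemokine for neutrophils, from 1530 ± 64.6 to 313 ± 54.5 CPM. *Saa3*, an acute-phase protein and among the most abundant transcripts of the control cells, measured 20400, 23900 and 12500 CPM with DMSO and 1430, 1960 and 1190 CPM with IWR-1. *Lif* (−3.69) and *Il11* (−4.04), cytokines of the interleukin-6 family, and the chemokine *Ccl5* (−4.36) fell alongside. In the opposite direction, *Csf1*, the macrophage growth factor, rose from 166 ± 16.1 to 337 ± 31.3 CPM (log2 fold change 1.03, SE 0.09, adjusted p = 1.7e-06), and *Ccl9* from 7.02 ± 2.86 to 23.8 ± 3.16 CPM. Both the IWR-1 values of *Csf1* and those of *Ccl9* lay above all DMSO values.

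The NF-κB subunits and their feedback inhibitors moved less than the mediators. Of 29 tested, 19 were lower and 1 higher, with 7 of the falls above 2-fold (median −0.56). *Nfkbia*, the inhibitor IκBα and itself an NF-κB target, fell from 139 ± 16.3 to 64.0 ± 2.64 CPM. *Tnfaip3*, the deubiquitinase A20, fell by 1.58 and *Traf1*, a receptor adaptor, by 1.88 on the log2 scale. The single rise was *Chuk*, the kinase IKKα (0.44, SE 0.09).

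**Figure D2:**
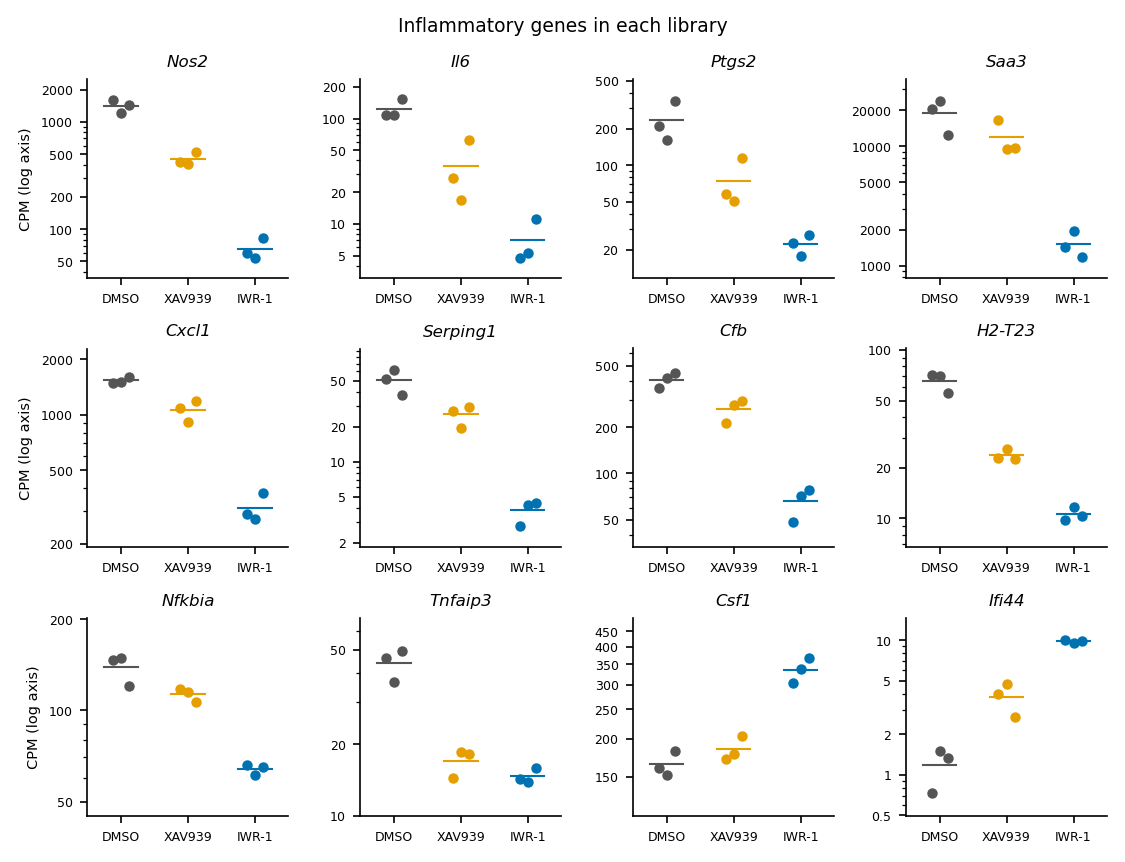
CPM of 12 inflammatory genes in each library on log axes, with 3 dots per group (DMSO, XAV939, IWR-1), replicates 1 to 3 from left to right, and a line at the mean. IWR-1 libraries lie below all DMSO libraries for 10 genes and above them for *Csf1* and *Ifi44*.

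Complement and acute-phase genes fell as a further group, 18 of 22 tested, 13 of them above 2-fold, with 1 rise (median −1.38). *Serping1*, the inhibitor of the first complement component, measured 51.7, 62.4 and 37.8 CPM with DMSO and 2.79, 4.24 and 4.41 CPM with IWR-1. *Cfb*, a factor of the alternative pathway, fell from 406 ± 43.2 to 66.2 ± 15.7 CPM and the central component *C3* from 1380 ± 87.6 to 543 ± 125 CPM. The rise was *F13a1* (0.59, adjusted p = 0.0147), a transglutaminase of clotting whose libraries overlapped, and its adjusted p-value was 0.639 without the block and 0.0793, 0.0975 and 0.0662 without DMSO replicate 1, IWR-1 replicate 1 or IWR-1 replicate 2. Of 19 genes of antigen processing and MHC class I, 12 were lower and 1, *Psmb10*, higher (median −0.64). *H2-T23*, a non-classical class I gene, fell from 65.5 ± 8.43 to 10.5 ± 0.958 CPM, and the classical *H2-K1* from 135 ± 40.4 to 54.0 ± 9.09 CPM. Class I genes are near-identical in part, so reads may have been split among them.

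Interferon-stimulated genes were called in both directions. Of 31 tested of 40 listed, 4 were higher and 12 lower (median −0.13, or −0.29 without IWR-1 replicate 2, −0.23 without DMSO replicate 2 and −0.20 without DMSO replicate 1). *Ifi44* rose from 1.19 ± 0.407 to 9.76 ± 0.284 CPM (log2 fold change 2.99, SE 0.23), whereas *Cmpk2*, a mitochondrial nucleotide kinase, fell from 2.46 ± 0.443 to 0.853 ± 0.119 CPM. *Isg15*, a ubiquitin-like protein, and *Irf7*, a transcription factor of interferon induction, were low throughout, at 1.97 ± 0.38 and 2.53 ± 0.464 CPM with DMSO and 1.25 ± 0.207 and 1.5 ± 0.092 CPM with IWR-1. *Ifit1* was lower still, at 0.889 ± 0.155 and 0.508 ± 0.0891 CPM. The number of lower members was 7 without DMSO replicate 1 and 5 without IWR-1 replicate 1. The fall of *Isg15* was not called without IWR-1 replicate 1 (adjusted p = 0.0896), and that of *Ifit1* (−0.74, adjusted p = 0.0223) had adjusted p-values of 0.128 with DESeq2 and of 0.0502 to 0.123 without DMSO replicate 1 or any 1 of the IWR-1 replicates.

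**Figure D3:**
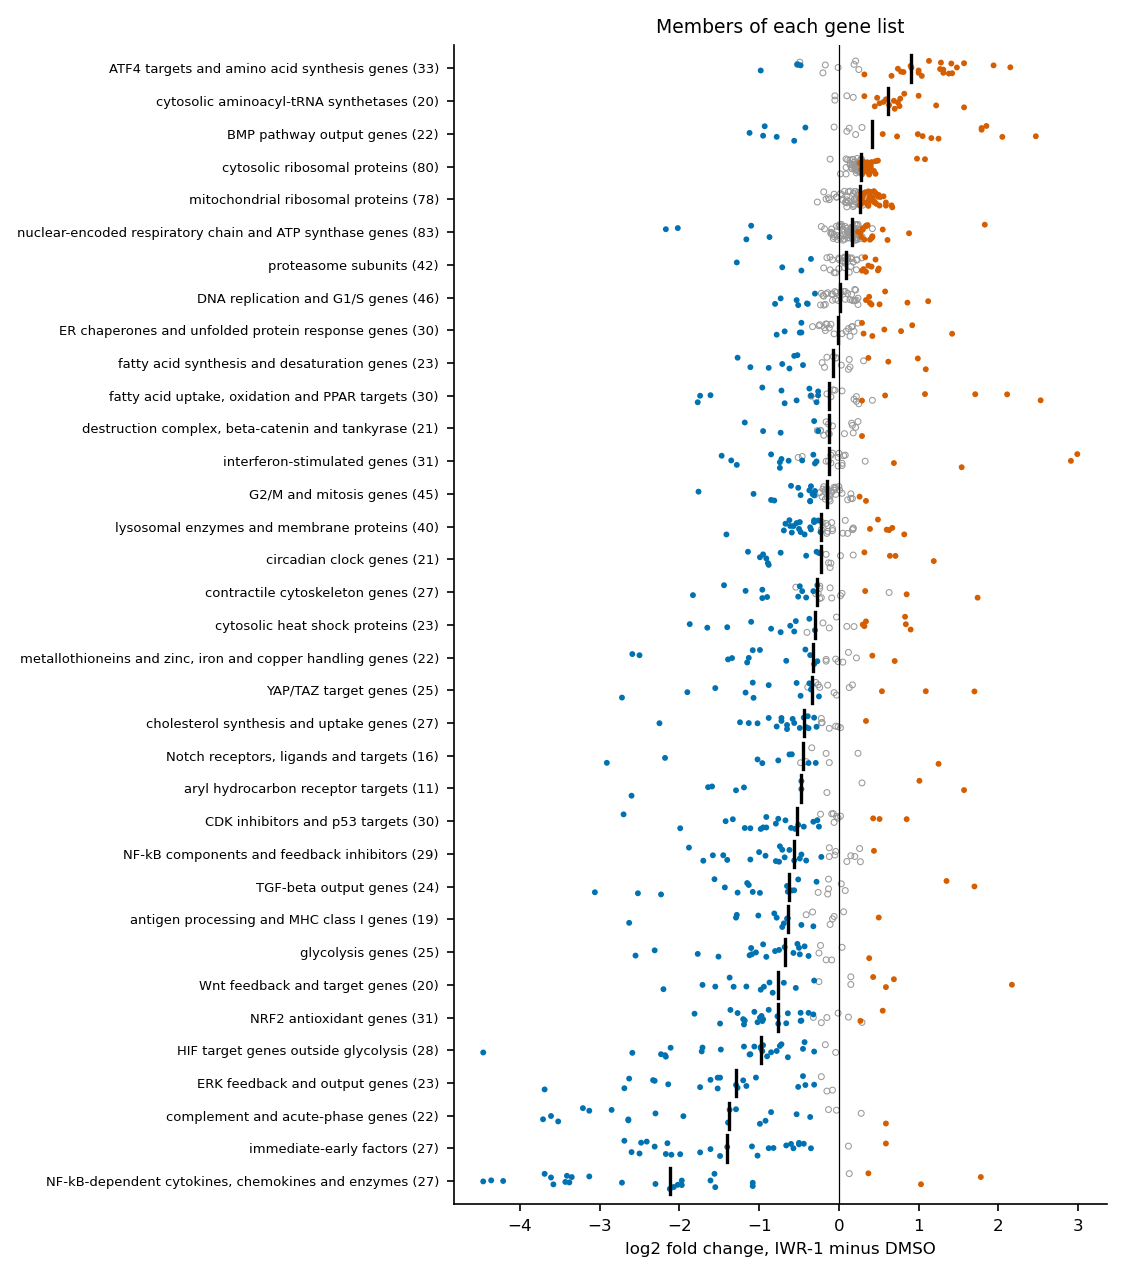
Log2 fold change, IWR-1 minus DMSO, of each tested member of 35 gene lists (number tested in parentheses), ordered by the median (black bar). Filled dots passed an adjusted p-value under 0.05 (orange higher, blue lower) and open grey dots did not. The NF-κB-dependent mediators have the lowest median (−2.12) and the ATF4 targets the highest (0.90).

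Immediate-early genes, which encode transcription factors induced within minutes of a stimulus, were lower in 25 of 27 tested members, 16 of them by more than 2-fold, and higher in 1 (median −1.40). Of these 27 genes, 10 are on a list of the study, and the median of the others was −0.82. *Fos* (gene ID 14281, chromosome 12, 85473890 to 85477274), a subunit of AP-1, measured 19.4, 16.6 and 18.3 CPM with DMSO and 2.3, 2.89 and 3.8 CPM with IWR-1 (log2 fold change −2.60, SE 0.17). *Fosl1*, another AP-1 subunit, fell from 129 ± 11.5 to 20.2 ± 4.66 CPM, although it overlaps *Ccdc85b*. *Myc* was the exception, at 44.3 ± 5.12 CPM with DMSO and 66.4 ± 4.24 CPM with IWR-1 (0.59, SE 0.09, adjusted p = 0.000175).

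Genes known as outputs and feedback inhibitors of the ERK kinases fell in 20 of 23 tested members, 16 by more than 2-fold, and rose in none (median −1.29). The largest fall was that of *Lif* (−3.69), described above with the cytokines. The phosphatase *Dusp6*, which switches ERK off, fell from 26.2 ± 1.66 to 12.7 ± 1.48 CPM, and the inhibitor *Spry4* from 6.16 ± 0.688 to 2.12 ± 0.332 CPM. *Spry2* changed least of the named members (−0.45, adjusted p = 0.0142), with overlapping libraries. Its adjusted p-value was 0.0577 without the block, 0.102 without DMSO replicate 1, 0.055 without IWR-1 replicate 1 and 0.0825 without IWR-1 replicate 2.

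Wnt target genes were lower in 13 and higher in 4 of 20 tested members (median −0.76), with 6 falls and 1 rise above 2-fold. *Axin2* (gene ID 12006, chromosome 11, 108917828 to 108950783), the most general feedback target of β-catenin, measured 3.32, 2.59 and 3.11 CPM with DMSO and 0.61, 0.417 and 0.812 CPM with IWR-1 (log2 fold change −2.20, SE 0.19, adjusted p = 2.72e-06). *Nkd2*, a feedback inhibitor, fell from 0.762 ± 0.243 to 0.22 ± 0.101 CPM. *Notum*, a secreted enzyme that inactivates Wnt ligands, had values of 3.15 ± 0.174 and 2.66 ± 0.497 CPM (−0.25, SE 0.15, adjusted p = 0.205). Higher values were found for *Dact1*, an antagonist of the pathway (3.36 ± 0.14 to 15.4 ± 0.598 CPM), which overlaps another transcribed gene, and for *Lef1*, a DNA-binding partner of β-catenin (0.43, adjusted p = 0.0107). The *Lef1* call had an adjusted p-value of 0.0615 without the block, 0.0747 without DMSO replicate 1 and 0.11 without IWR-1 replicate 1, and 2 members were called higher without either of these libraries.

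The genes of the destruction complex, β-catenin and the tankyrases themselves were mostly not called. Of 21 tested, 5 were lower and 1 higher (median −0.13). *Lrp5*, a Wnt co-receptor, fell from 115 ± 26.4 to 51.4 ± 13.8 CPM (−1.18, SE 0.19). *Ctnnb1*, the β-catenin gene, was at 712 ± 17.4 CPM and 873 ± 8.62 CPM (0.29, adjusted p = 0.0208), a call with an adjusted p-value of 0.0509 without the block and of 0.061 to 0.145 without 1 of 4 libraries (DMSO replicates 1 and 2, IWR-1 replicates 1 and 3). The number of lower members was 3 without DMSO replicate 1, DMSO replicate 3 or IWR-1 replicate 1, and 10 without DMSO replicate 2.

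Targets of YAP and TAZ, the effectors of Hippo signalling, were lower in 13 and higher in 3 of 25 tested members (median −0.34), and 8 were lower without the block. *Ccn1*, a matricellular protein, fell from 243 ± 39.6 to 115 ± 8.07 CPM and *Ankrd1*, a nuclear ankyrin protein, from 1.72 ± 0.281 to 0.209 ± 0.0743 CPM. Its relative *Ccn2* did not pass the test, at 289, 431 and 408 CPM with DMSO and 301, 281 and 343 CPM with IWR-1 (−0.26, adjusted p = 0.154), although without IWR-1 replicate 1 it did (−0.47, adjusted p = 0.022). *Fjx1* rose by 1.70 on the log2 scale. Contractile genes driven by SRF were lower in 12 and higher in 3 of 27 tested members (median −0.27), and in 7 without IWR-1 replicate 2. Among them *Acta2*, smooth muscle actin, rose from 21.1 ± 7.12 to 69.9 ± 26.6 CPM (1.74, SE 0.19), *Filip1l* fell by 1.83, and *Tagln* and *Cnn1* did not pass the test (adjusted p = 0.928 and 0.124).

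TGF-β and BMP outputs differed in direction. Of 24 TGF-β output genes, 16 were lower and 2 higher, with 9 falls above 2-fold (median −0.62). *Col1a1*, a chain of type I collagen, measured 6060, 5490 and 6290 CPM with DMSO and 1880, 1860 and 3060 CPM with IWR-1 (−1.43, SE 0.13, adjusted p = 4.22e-06). The matrix proteins *Tgfbi* and *Postn* rose, from 101 ± 9.69 to 329 ± 27.2 CPM and from 11.3 ± 3.79 to 28.1 ± 2.88 CPM. All 3 of these genes are on the study's list of genes raised in osteoarthritis, 1 of them falling and 2 rising here.

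Of 22 BMP output genes, 11 were higher and 6 lower, with 8 rises and 1 fall above 2-fold (median 0.42, or 0.25 without the 2 members on lists of the study). The immediate targets *Id1* and *Id3*, inhibitors of helix-loop-helix factors, rose from 28.4 ± 5.44 to 58.3 ± 8.58 CPM and from 90.5 ± 11 to 150 ± 23.7 CPM. *Sp7*, the osterix transcription factor of bone formation, rose from 1.9 ± 0.224 to 10.8 ± 0.602 CPM (2.47, SE 0.16). *Smad6*, an inhibitor, did not pass the test (0.29, adjusted p = 0.0615). It did with upper-quartile normalization (adjusted p = 0.0448), in the fit of 6 libraries (0.037) and without DMSO replicate 2 (0.0339). The BMP antagonist *Grem1* measured 103, 82.9 and 182 CPM with DMSO and 33.1, 53.4 and 88.5 CPM with IWR-1. It was lower within each pair, but the groups overlapped and its adjusted p-value went from 0.000282 to 0.0616 without the block. The ligand *Bmp4* fell from 25.9 ± 5.04 to 1.82 ± 0.245 CPM while most of the output genes called were higher.

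Notch receptors, ligands and targets were lower in 9 and higher in 1 of 16 tested members (median −0.45), and lower in 5 without the block and in 5 without DMSO replicate 1 or IWR-1 replicate 1. The receptor *Notch3* fell from 14.5 ± 4.05 to 1.86 ± 0.332 CPM. *Hey1*, a repressor that answers to both Notch and BMP, rose from 2.37 ± 0.302 to 5.69 ± 0.636 CPM.

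Genes of glycolysis, and others induced by HIF, the transcription factor stabilized in low oxygen, were largely lower. Of 25 glycolysis genes, 19 were lower, 8 by more than 2-fold, and 1 higher (median −0.68). *Slc2a1* (gene ID 20525, chromosome 4, 119108745 to 119137330), the glucose transporter GLUT1, measured 696, 637 and 616 CPM with DMSO and 327, 348 and 332 CPM with IWR-1 (−0.95, SE 0.10, adjusted p = 1.09e-05). *Slc2a3*, the transporter GLUT3, fell from 23.5 ± 1.81 to 3.97 ± 0.4 CPM, and *Ldha*, the lactate dehydrogenase subunit of fermenting cells, from 4640 ± 731 to 2240 ± 103 CPM. *Ldhb*, the subunit of oxidative tissue, was the gene higher (0.38, adjusted p = 0.00713), with adjusted p-values of 0.181 without the block, 0.051 without DMSO replicate 3 and 0.0604 without IWR-1 replicate 3. *Hk2*, a hexokinase, measured 182, 162 and 211 CPM and 142, 163 and 164 CPM and did not pass the test (−0.25, adjusted p = 0.106), but did in the fit of 6 libraries (adjusted p = 0.0479) and without DMSO replicate 2 (−0.41, adjusted p = 0.00442).

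Of 28 HIF targets outside glycolysis, 26 were lower, 13 by more than 2-fold, and none was higher (median −0.98). The largest fall was that of *Nos2* (−4.46), which is also counted among the NF-κB-dependent mediators. *Egln3* (gene ID 112407, chromosome 12, 54178981 to 54203874), a prolyl hydroxylase that limits HIF, measured 131, 138 and 133 CPM with DMSO and 20, 23.5 and 23.5 CPM with IWR-1 (−2.59, SE 0.09, adjusted p = 6.99e-09). *Vegfa*, the angiogenic growth factor, fell from 604 ± 63.3 to 264 ± 20.2 CPM, and *Bnip3*, a mitophagy receptor, from 845 ± 61.4 to 514 ± 62.3 CPM. No IWR-1 library reached the lowest DMSO library for 25 of these 28 genes, against 26.4% of all genes tested.

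HIF binds the letters ACGTG. This motif was searched on both strands in the RefSeq promoter windows (GRCm38.p6, 250 bases before to 50 after each start) and lay in 17 of 29 windows (58.6%) of the HIF list and in 16 of 37 (43.2%) of the glycolysis list, against 25% of 13983 windows of all genes tested. A match is a sequence description and no evidence of binding. Windows of a gene can overlap, as for *Aldoa*, so a site may be counted more than once. *Hk2* and *Pfkm*, which were not called, also carry the motif outside annotated exons. Stretches of 60 bases are shown for 5 members that fell, because they carry the motif (capitals, on either strand) outside any annotated exon, and these examples were chosen after their values were seen.
*Bnip3*, chr7:138909582-138909641, minus strand: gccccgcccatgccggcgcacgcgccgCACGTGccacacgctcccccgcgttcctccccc
*Ddit4*, chr10:59951926-59951985, minus strand: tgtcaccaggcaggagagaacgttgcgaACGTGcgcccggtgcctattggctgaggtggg
*Egln3*, chr12:54204065-54204124, minus strand: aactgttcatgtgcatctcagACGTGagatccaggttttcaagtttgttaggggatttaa
*Pgk1*, chrX:106186941-106187000, plus strand: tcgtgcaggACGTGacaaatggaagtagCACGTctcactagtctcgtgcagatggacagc
*Ldha*, chr7:46845742-46845801, plus strand: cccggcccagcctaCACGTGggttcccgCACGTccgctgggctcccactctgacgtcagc
The *Ldha* and *Pgk1* stretches each hold a pair of separate motifs, and the *Ldha* stretch lies inside the span of the gene, before an alternative start. The 5 genes fell by 0.72, 0.98, 2.59, 0.49 and 1.04 on the log2 scale in the order shown, all past the test.

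Amino acid supply genes moved in the opposite direction. ATF4 is a transcription factor made when amino acids are short or protein folding is disturbed, and its targets take up, make and load amino acids. Of 33 tested, 22 rose, 14 by more than 2-fold, and 3 fell (median 0.90). *Slc1a5* (gene ID 20514, chromosome 7, 16781334 to 16798274), the glutamine transporter ASCT2, measured 64.2, 103 and 81.4 CPM with DMSO and 353, 401 and 335 CPM with IWR-1 (2.15, SE 0.11, adjusted p = 6.46e-08). It is on the study's SOX9-target and cartilage lists, and the median without the 8 members on such lists was 0.81. *Asns* (gene ID 27053, chromosome 6, 7675165 to 7693209), asparagine synthetase, measured 168, 208 and 151 CPM and then 379, 353 and 317 CPM. *Phgdh*, the first enzyme of serine synthesis, rose from 146 ± 24.8 to 349 ± 26.3 CPM, the pseudokinase *Trib3* from 105 ± 14.1 to 260 ± 21.2 CPM, and *Slc7a5*, a transporter of large neutral amino acids, from 131 ± 17.6 to 386 ± 32.1 CPM. *Ddit3*, the factor CHOP, rose by 1.42 (107 ± 17.2 to 285 ± 40 CPM), with the limit that it overlaps *Mars1*, itself a gene of the next list. *Ddit4*, shared with the HIF list, fell by 0.98.

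The enzymes that load amino acids onto transfer RNA rose in 16 of 20 tested members and fell in none (median 0.61), with 3 rises above 2-fold. *Wars* (gene ID 22375, chromosome 12, 108860030 to 108894175), the tryptophan enzyme, measured 53.4, 58.7 and 56.1 CPM with DMSO and 163, 177 and 159 CPM with IWR-1 (1.57, SE 0.11, adjusted p = 5.1e-07). Its span overlaps *Wdr25*. All 3 IWR-1 libraries lay above all 3 DMSO libraries for 17 of the 20 genes, against 24.7% of all genes tested.

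ATF4 with its partners binds TGATGNAA. These letters lay in 10 of 33 promoter windows (30.3%) of the ATF4 list and in 5 of 13 (38.5%) of the tRNA synthetase list, against 2.28% of windows of all genes tested. Stretches are shown for 4 members that rose and 1 that fell, to set the motif (capitals, either strand) beside both directions, and they too were chosen after their values were seen.
*Chac1*, chr2:119351023-119351082, plus strand: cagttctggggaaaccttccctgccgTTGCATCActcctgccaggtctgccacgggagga
*Fgf21*, chr7:45615596-45615655, minus strand: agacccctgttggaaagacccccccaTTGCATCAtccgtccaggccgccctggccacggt
*Pycr1*, chr11:120643818-120643877, minus strand: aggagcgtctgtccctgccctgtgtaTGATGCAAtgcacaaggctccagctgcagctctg
*Gars*, chr6:55037941-55038000, plus strand: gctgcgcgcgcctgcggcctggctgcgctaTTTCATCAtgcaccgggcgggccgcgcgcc
*Slc7a11*, chr3:50443627-50443686, minus strand: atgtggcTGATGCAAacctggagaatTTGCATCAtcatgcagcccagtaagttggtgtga
*Chac1*, *Fgf21*, *Pycr1* and *Gars* rose by 1.48, 1.94, 1.38 and 1.0 on the log2 scale. *Slc7a11*, the cystine transporter, holds the motif on each strand and fell by 0.48. Its libraries overlapped, and the adjusted p-value was 0.0079, with 0.0957 without the block and 0.0583 without IWR-1 replicate 3. It is also an antioxidant gene of the NRF2 list.

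In all, 7 motifs were searched, on both strands, each in the lists it is known for, and some were about as frequent there as over all genes tested. Within a list, members that were called were not compared with those that were not, so these shares do not bear on the response to IWR-1. The TCF/LEF letters CTTTGAA or CTTTGAT lay in 5.88% of windows of the Wnt targets (1 of 17) against 5.98%. The AP-1 letters TGANTCA lay in 5.56% of windows of the ERK outputs (1 of 18) and in 23.8% of those of the NF-κB-dependent mediators (5 of 21) against 5.26%. The CRE letters TGACGTCA lay in 7.69% of windows of the immediate-early genes (2 of 26) against 2.97%. The interferon response letters GAAANNGAA lay in 55.6% of windows of the interferon-stimulated genes (15 of 27) and in 26.3% of those of the MHC list (5 of 19) against 6.91%. The antioxidant letters TGANNNNGC lay in 54.5% of windows of the NRF2 list (18 of 33) against 42.7%.

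**Figure D4:**
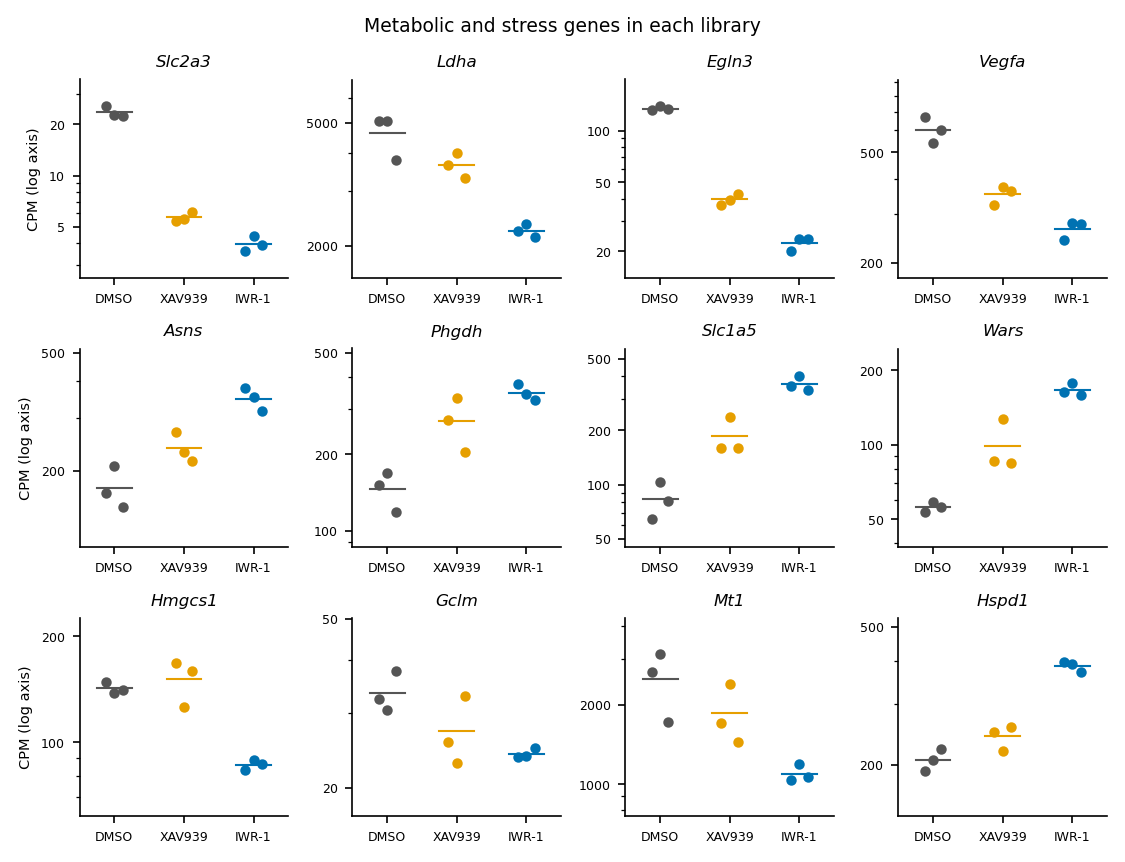
CPM of 12 metabolic and stress genes in each library on log axes, with 3 dots per group (DMSO, XAV939, IWR-1), replicates 1 to 3 from left to right, and a line at the mean. IWR-1 libraries lie below every DMSO library for *Slc2a3*, *Ldha*, *Egln3*, *Vegfa*, *Hmgcs1*, *Gclm* and *Mt1* and above them for the other 5 genes.

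Antioxidant genes controlled by NRF2 were lower in 23 and higher in 2 of 31 tested members (median −0.76), 9 of the falls above 2-fold. *Hmox1*, which degrades heme, fell from 954 ± 56.5 to 489 ± 37.1 CPM, and *Gclm*, a subunit of the enzyme that starts glutathione synthesis, from 33.6 ± 3.79 to 24.1 ± 0.67 CPM. *Aox1*, an aldehyde oxidase, fell by 1.81. *Taldo1*, a pentose phosphate enzyme, rose by 0.55. *Nqo1*, often used as the reporter of this pathway, was at 52, 56 and 66.5 CPM with DMSO and 70.8, 68.7 and 71.7 CPM with IWR-1. The groups did not overlap, but its test gave an adjusted p-value of 0.063, with 0.0456 by upper-quartile normalization, 0.0181 in the fit of 6 libraries and 0.015 without IWR-1 replicate 3. The number of higher members was 1 without the block or without any of 4 libraries (replicates 1 and 2 of both groups).

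Targets of the aryl hydrocarbon receptor, a sensor of planar aromatic compounds, were lower in 7 and higher in 2 of 11 tested members of 16 listed (median −0.47). The median was −0.87 without DMSO replicate 3 and −0.82, −0.83 and −0.82 without IWR-1 replicates 1, 2 and 3. *Cyp1b1* fell from 235 ± 24.4 to 76.0 ± 13.1 CPM and *Aldh3a1* from 4.3 ± 0.336 to 0.669 ± 0.132 CPM, whereas *Ahrr*, the repressor of the receptor, rose from 1.7 ± 0.5 to 3.49 ± 0.946 CPM. The largest rise of the list was that of *Slc7a5* (1.57), described above with the ATF4 targets. *Cyp1a1*, the classical target, had 0 counts in each DMSO library and at most 0.128 CPM with IWR-1, and was not tested. Metal handling genes were lower in 13 and higher in 2 of 22 (median −0.33, or −0.21 without the 4 members on lists of the study). *Slc39a8*, a zinc and manganese importer, measured 121, 134 and 121 CPM with DMSO and 21.5, 23.6 and 21.1 CPM with IWR-1 (−2.50, SE 0.11, adjusted p = 2.22e-08). The metallothioneins *Mt1* and *Mt2*, small metal-binding proteins of similar sequence, fell from 2510 ± 713 to 1090 ± 80.7 CPM and from 2920 ± 861 to 1290 ± 75.8 CPM. The copper exporter *Atp7b* fell by 2.59, and the metalloreductase *Steap1* rose by 0.70.

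Cholesterol synthesis genes, controlled by SREBP2, fell by small amounts. Of 27 tested, 19 were lower, 4 of them by more than 2-fold, and 1 higher (median −0.44). *Hmgcs1* (gene ID 208715, chromosome 13, 119690351 to 119708260) and *Sqle*, early and middle enzymes of the pathway, both fell by 0.72 on the log2 scale, from 143 ± 5.16 to 86.3 ± 3.01 CPM and from 161 ± 9.31 to 97.8 ± 7.86 CPM. The gene higher was *Scap*, the SREBP escort protein (0.34, adjusted p = 0.0194), with 0.0507 without the block and 0.0825, 0.0841 and 0.12 without DMSO replicate 2, IWR-1 replicate 1 or IWR-1 replicate 3.

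Fatty acid synthesis genes were called in both directions, 4 higher and 8 lower of 23. Their median of −0.07 had no stable direction, at −0.14 without DMSO replicate 3 and 0.02 without DMSO replicate 1. *Acaca*, the rate-limiting carboxylase, rose from 111 ± 13.6 to 235 ± 23.8 CPM and *Srebf1*, the lipogenic SREBP, from 145 ± 6.17 to 224 ± 26.1 CPM. *Dgat2*, the last enzyme of triglyceride synthesis, fell from 122 ± 21.5 to 51.0 ± 9.93 CPM. *Fasn* (adjusted p = 0.815) and *Scd1* (adjusted p = 0.564) did not pass the test. Genes of fatty acid uptake and oxidation were mixed, with 6 higher and 12 lower of 30 (median −0.12), or 7 lower without IWR-1 replicate 1. *Angptl4*, an inhibitor of lipoprotein lipase, fell from 165 ± 30.4 to 49.6 ± 8.32 CPM, and the lipid carrier *Fabp4* from 41.2 ± 7.31 to 13.5 ± 2.15 CPM. The lipid droplet protein *Plin2* fell by 0.72 and its relative *Plin4* rose by 2.53. *Pdk4*, a kinase that blocks pyruvate oxidation, fell by 1.77. *Cpt1a*, the gate of mitochondrial import, measured 31.2 ± 5.06 and 24.2 ± 4.48 CPM (−0.37, adjusted p = 0.00727), with 0.0881 without the block and 0.0716 without IWR-1 replicate 1.

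Ribosomal subunits were higher by small amounts, in counts that rested on the pairing. Of 80 cytosolic ribosomal protein genes, 32 were higher and none lower (median 0.28), and of 78 mitochondrial ribosomal protein genes 39 were higher and none lower (median 0.27). Without the block, 2 and 17 were higher. The cytosolic count was 54 without DMSO replicate 2 and 6 to 9 without any other of the 6 libraries except IWR-1 replicate 2. The mitochondrial count was 19, 15, 14 and 16 without DMSO replicate 1, DMSO replicate 3, IWR-1 replicate 1 or IWR-1 replicate 3. All IWR-1 libraries exceeded all DMSO libraries for 4 of the 80 and 25 of the 78 genes, so the cytosolic set fell short of the 24.7% of all genes tested. The largest rises were *Mrpl42* (29.6 ± 5.45 to 46.8 ± 5.25 CPM) and *Rpl26*, which was counted at only 1.82 to 5.7 CPM per library. Many ribosomal genes have processed pseudogenes that share their reads.

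Nuclear-encoded respiratory chain genes were higher in 17 and lower in 5 of 83 (median 0.16, or 0.06 without DMSO replicate 3 and 0.26 without DMSO replicate 2), a share below the background. The number higher was 4 without the block, 32 without DMSO replicate 2, 7 without DMSO replicate 1 and 6 without DMSO replicate 3, IWR-1 replicate 1 or IWR-1 replicate 3. *Ndufa4l2*, a complex I-related protein induced by HIF, fell from 646 ± 167 to 140 ± 7.22 CPM and overlaps *Shmt2*. *Cox6a2*, a muscle form of a cytochrome oxidase subunit, rose from 1.84 ± 0.391 to 6.61 ± 0.676 CPM. Proteasome subunits were higher in 9 and lower in 4 of 42 (median 0.09, or 0.05 without DMSO replicate 3 and 0.16 without DMSO replicate 2), with 5 higher without the block and 16 without DMSO replicate 2. Their shares, 21.4% higher and 9.52% lower, did not exceed the 22.2% and 25.3% of all genes tested. The 2 extremes were both of the immunoproteasome, *Psmb8* at 3.4 ± 0.429 and 1.36 ± 0.0893 CPM and *Psmb10* at 10.7 ± 2.03 and 15.0 ± 0.827 CPM. The *Psmb10* call (0.50, adjusted p = 0.00773) had adjusted p-values of 0.0556 without the block and 0.0641 without IWR-1 replicate 3.

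Genes of protein folding were called in both directions. Of 30 genes of the unfolded protein response, 7 were higher and 5 lower (median −0.01, from −0.04 without IWR-1 replicate 2 to 0.04 without DMSO replicate 2, and −0.08 without the 2 members on lists of the study). The share higher, 23.3%, was near the 22.2% of all genes tested, and the share lower, 16.7%, was below the 25.3%. *Hspa5*, the chaperone BiP, was at 1260 ± 23.7 and 1560 ± 45.8 CPM (0.31, adjusted p = 0.0147), with adjusted p-values of 0.0663, 0.0794 and 0.0657 without DMSO replicate 1, IWR-1 replicate 1 or IWR-1 replicate 2. *Pdia4* did not pass the test (adjusted p = 0.197), the cochaperone *Sdf2l1* fell by 0.68 and the oxidase *Ero1a*, also a HIF target, by 0.78. Cytosolic heat shock proteins were lower in 11 and higher in 6 of 23 (median −0.30), with 3 higher without the block or without IWR-1 replicate 1. The near-identical copies *Hspa1a* and *Hspa1b* fell by 1.65 and 1.87, *Hsph1* by 0.54 and *Hsp90aa1* by 0.30. The *Hsp90aa1* call (adjusted p = 0.0241) had an adjusted p-value of 0.0842 without the block and of 0.0683 to 0.088 without DMSO replicate 1 or 2 or IWR-1 replicate 1 or 3. The mitochondrial chaperone *Hspd1*, which overlaps *Hspe1*, rose from 207 ± 14.7 to 385 ± 13.6 CPM. Lysosomal genes were lower in 19 and higher in 6 of 40 (median −0.22). The protease *Ctsh* fell by 1.41 and *Ctsb* by 0.62, the cholesterol transporter *Npc1* rose by 0.82, and *Ctsd* (adjusted p = 0.15) and *Lamp1* (adjusted p = 0.71) did not pass the test.

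Proliferation genes were mostly not called. Of 46 DNA replication and G1/S genes, 8 were higher and 7 lower (median 0.01, from −0.03 without IWR-1 replicate 3 to 0.14 without DMSO replicate 2), with 5 higher without the block and 3 without IWR-1 replicate 1. *Mcm2*, a subunit of the replicative helicase, rose from 39.6 ± 3.49 to 85.9 ± 6.1 CPM, *Ccne2*, a G1/S cyclin, fell from 28.0 ± 4.03 to 16.2 ± 3.11 CPM, and *Pcna* was at 121 ± 1.93 and 108 ± 6.41 CPM (adjusted p = 0.15). Of 45 G2/M genes, 14 were lower and 2 higher (median −0.15, or −0.08 without DMSO replicate 2), with 8 and 0 without the block and 8 lower without IWR-1 replicate 2. *Mki67*, the common marker of cycling cells, measured 89.8, 76.5 and 139 CPM with DMSO and 92.7, 80.1 and 130 CPM with IWR-1 (0.01, SE 0.08, adjusted p = 0.956), and replicate 3 was the highest of both groups. *Top2a* gave an adjusted p-value of 0.238. The mitotic cyclin *Ccnb1* fell by 0.51 and *Ckap2*, a spindle protein, by 1.76. *Foxm1* was higher (0.34, adjusted p = 0.0206), with 0.107 without the block and with both G2/M rises lost without DMSO replicate 1 or 3 or IWR-1 replicate 1 or 3 (adjusted p for *Foxm1* from 0.0724 to 0.159).

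Cell cycle inhibitors and p53 targets were lower in 20 and higher in 3 of 30 (median −0.53). *Cdkn1a*, the inhibitor p21, fell from 592 ± 105 to 258 ± 12 CPM, *Cdkn2a*, the locus of p16 and ARF, from 10.6 ± 2.35 to 5.41 ± 1.17 CPM, and *Pmaip1*, a mediator of apoptosis, from 7.01 ± 2.54 to 1.03 ± 0.323 CPM. *Cdkn1c*, the inhibitor p57, rose from 61.5 ± 16.6 to 109 ± 9.28 CPM. Circadian clock genes were lower in 10 and higher in 4 of 21 (median −0.23). *Per3* rose from 11.6 ± 1.18 to 26.6 ± 2.74 CPM and *Dbp* from 7.62 ± 1.62 to 12.5 ± 1.12 CPM, the nuclear receptor *Rora* fell from 91.1 ± 19 to 40.8 ± 4.03 CPM and *Nr1d1* did not pass the test (adjusted p = 0.519). *Per2* fell by 0.41 (adjusted p = 0.0134), with adjusted p-values of 0.0554 to 0.0847 without DMSO replicate 1 or 3 or IWR-1 replicate 1 or 2.

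Markers of other cell types were examined in the same libraries. Fibroblast markers summed to 9830 to 10500 CPM with DMSO and 3680 to 4760 CPM with IWR-1, and 10 of 15 tested were lower and 4 higher. *Has1*, a hyaluronan synthase, fell from 2.31 ± 1.02 to 0.0397 ± 0.044 CPM. Osteoblast markers summed to 12600 to 16600 and 4970 to 6290 CPM, with 4 of 10 tested higher and 2, among them *Col1a1*, lower. Adipocyte markers summed to 125 to 134 and 61 to 70.6 CPM, with 3 of 5 tested lower and 1, *Pparg* (0.58, adjusted p = 0.00543), higher. Osteoclast markers summed to 94.3 to 117 and 82.6 to 103 CPM, with 3 of 7 tested lower and 1 higher. The protease *Mmp9* fell from 13.4 ± 2.48 to 2.96 ± 0.469 CPM. *Ctsk*, cathepsin K, was higher (0.63, adjusted p = 0.000271), but its libraries overlapped and the adjusted p-value was 0.0825 without the block. The part of these cell types in the results above was not tested.

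Leukocyte markers summed to 37.6 to 47.5 CPM with DMSO and 25 to 27.8 CPM with IWR-1, 10 of 16 stayed under 1 CPM in all 6 libraries, and of 7 tested 4 were lower and 1 higher. *Cd14*, a receptor for bacterial lipid that is not limited to leukocytes, fell from 27.4 ± 3.58 to 8.98 ± 1.78 CPM, and *Laptm5* rose from 1.28 ± 0.292 to 8.44 ± 1.46 CPM. Endothelial markers summed to 10.6 to 13.4 and 5.91 to 6.64 CPM, with all 5 tested of 13 lower, among them *Plvap* (−1.45), and with *Tie1* at 0 counts. Epithelial and mesothelial markers summed to 13.7 to 29.3 and 2.67 to 5.03 CPM. Of 4 tested, 2 were lower and 1 higher. *Krt19* measured 15.1, 10.9 and 5.66 CPM with DMSO and 0.756, 0.385 and 0.203 CPM with IWR-1, and *Msln* fell from 7.99 ± 1.99 to 0.321 ± 0.0312 CPM. Schwann cell and neuronal markers summed to 83.0 to 114 and 276 to 351 CPM, with 5 of 7 tested higher and none lower. Their median log2 fold change was 0.94, or 0.84 without the 1 member on lists of the study. *Ngfr*, a neurotrophin receptor, went from 0.1 ± 0.0426 to 1.22 ± 0.0826 CPM, a small part of these sums. Of 15 skeletal muscle markers, 14 stayed under 1 CPM in all 6 libraries. Of 5 tested, 1, *Tnnt3*, was higher (0.62, adjusted p = 0.0334), with an adjusted p-value of 0.158 with DESeq2 and of 0.0593 to 0.152 without any 1 of 5 libraries.

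IWR-1 was finally set against XAV939, a tankyrase inhibitor that binds another site of the enzyme, given at the same dose for the same time. At an adjusted p-value under 0.05, 4258 genes (30.7%) differed, 1962 higher (14.1%) and 2296 lower (16.6%) with IWR-1. The total was 2442 without the block, 2291 without IWR-1 replicate 1 and 2575 without IWR-1 replicate 2. For 21 of the 27 NF-κB-dependent mediators IWR-1 gave lower values than XAV939, and higher ones for 2. *Nos2* measured 450 CPM on average with XAV939, and IWR-1 lay lower by a log2 difference of −2.79 (SE 0.13, adjusted p = 3.13e-07). Complement and acute-phase genes were lower than with XAV939 in 18 of 22 members, cholesterol genes in 19 of 27 and G1/S genes in 27 of 46. For complement, the median log2 fold change against DMSO was −1.38 with IWR-1 and −0.11 with XAV939. For cholesterol genes it was −0.44 and 0.12. For G1/S genes it was 0.01 and 0.39, so their difference lay mainly in higher XAV939 values. ATF4 targets were higher in 25 of 33 members and tRNA synthetases in 15 of 20, with *Wars* at 99.1 CPM on average with XAV939 (difference 0.77, SE 0.11, adjusted p = 0.000291). *Hmgcs1* was at 151 CPM on average with XAV939, above the IWR-1 mean (IWR-1 minus XAV939 −0.80, adjusted p = 0.000147). Its XAV939 libraries (168, 126 and 159 CPM) lay on both sides of the DMSO libraries (148, 138 and 141 CPM). No test of XAV939 against DMSO is given.

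Other genes did not pass the test between the inhibitors, and their 95% intervals, taken gene by gene, bound the difference. *Slc2a1* averaged 340 CPM with XAV939, with a log2 difference of −0.01 (interval −0.23 to 0.20, adjusted p = 0.93). *Id3* averaged 149 CPM (0.01, interval −0.23 to 0.25, adjusted p = 0.961). *Hmox1* averaged 424 CPM (0.21, interval −0.02 to 0.44, adjusted p = 0.158). *Tnfaip3* averaged 17.0 CPM (−0.21, interval −0.48 to 0.06, adjusted p = 0.215). YAP/TAZ targets were higher with IWR-1 than with XAV939 in 9 of 25 members and lower in 3, with *Ccn1* at 68.6 CPM with XAV939 (0.74, SE 0.10, adjusted p = 0.000155) and *Ccn2* at 178 CPM (0.83, SE 0.14, adjusted p = 0.00102). *Axin2* was at 1.09 CPM with XAV939, and IWR-1 lay lower by −0.78 (SE 0.21, adjusted p = 0.0175). *Cyp1b1* and *Aldh3a1* were at 279 and 7.52 CPM with XAV939, and IWR-1 lay below by −1.87 and −3.35, whereas *Ahrr* was at 12.4 CPM and IWR-1 again below it (−1.82, SE 0.15).

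**Figure D5:**
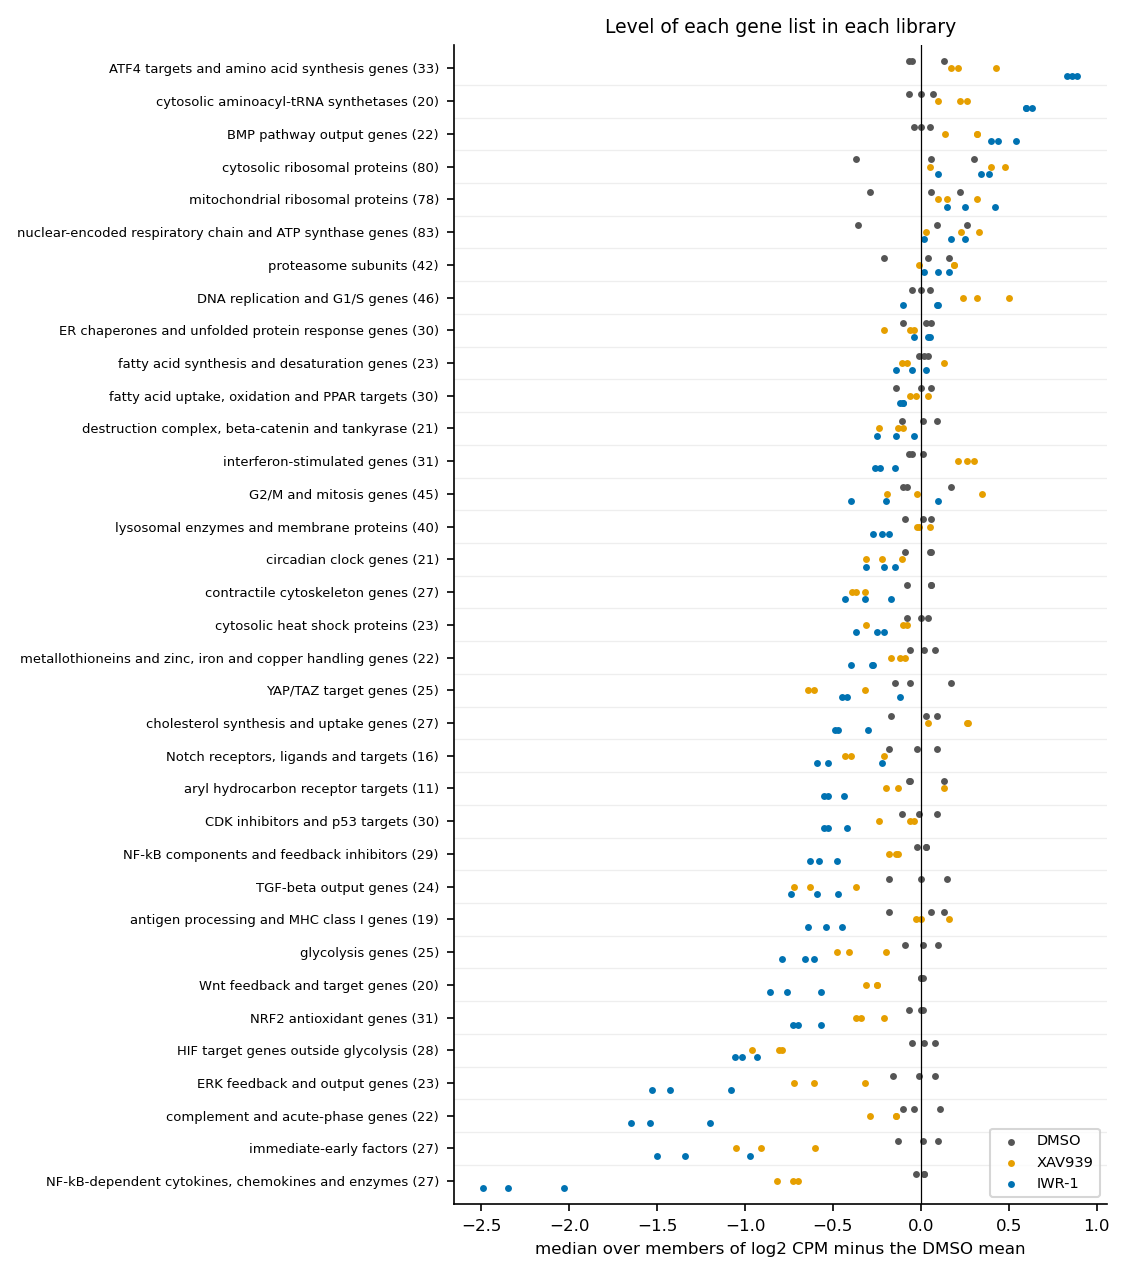
Median over the members of each list of log2 CPM minus the mean of the DMSO libraries, for each of the 9 libraries (3 dots per group; number of members tested in parentheses). For the NF-κB-dependent mediators the DMSO libraries lie between −0.03 and 0.02, the XAV939 libraries between −0.82 and −0.70 and the IWR-1 libraries between −2.49 and −2.03.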

How the data were processed

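Primary chondrocytes were profiled by strand-specific poly(A) RNA-seq. Per the methods and labels, the authors used Trimmomatic 0.32 for trimming, TopHat2 2.0.13 for alignment (mm10) and HTSeq 0.6.1p1 for counting per gene, and deposited raw counts for 9 libraries of drug-treated cells. The annotation and strand setting of the counting were not given in the sources used here. A table of cells given siRNA was not used here. Of 24134 gene IDs, 24051 matched a symbol, and the 83 others held 0.217 to 1.048% of a library. Counts of all 9 libraries were filtered (filterByExpr), normalized by TMM and fitted in edgeR 4.0.16 (R 4.3.3) with the quasi-likelihood F test, with the replicate number as a block and a prior count of 2. Calls needed an adjusted p-value under 0.05 over 13873 genes. Standard errors were derived from the F statistic, and the script was tested on simulated data.

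Replicate numbers come from the labels and the column names. Deviations from the group means correlated between same-numbered IWR-1 and DMSO libraries at r = 0.244 to 0.551 (3 pairs, across genes) and between other numbers at −0.489 to 0.316 (6). All 9 same-numbered pairs over the 3 groups exceeded 0.1 (lowest 0.143). That limit does not set them apart, because some pairs with unlike numbers exceeded it too. DMSO replicate 2 correlated more with replicate 1 of IWR-1 (0.316) and XAV939 (0.318) than with replicate 2 of each (0.244 and 0.143). The block was used because the comparison was defined by same-numbered pairs. Alternatives were DESeq2 1.42.0, other normalizations and filters, no block, 6 libraries only and leaving out each library.

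The gene lists, and the choice of this comparison, were made with earlier results of these data known. Named genes were key members of each list chosen for their role, the largest called rise and fall of each list with a mean of at least 1 CPM in either group, and the 10 largest rises and falls overall with at least 10 CPM, the same sign in 3 pairs and on no list of the study. Gene positions come from GENCODE (GRCm38/mm10) and promoters from RefSeq (GRCm38.p6). Some genes that the rule would name are not reported here.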

Additional observations from a re-analysis of the deposited data

How the results depend on the processing

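No named gene that passed the test changed sign under any alternative, nor did its call reverse. Medians close to 0 did change sign when 1 library was left out (fatty acid synthesis, Hox, unfolded protein response, G1/S and zinc finger genes), as did genes that had not passed the test, such as *Tagln* (−0.21 to 0.21), *Fasn* (−0.19 to 0.06) and *Nr1d1* (−0.27 to 0.03). The pairing carries part of the calls. Without the replicate block, 5049 genes (1952 above 2-fold) differed between IWR-1 and DMSO, all of them among the 6593, and 2442 (1022 higher, 1420 lower) between IWR-1 and XAV939. Of the named genes, 14 calls were lost without it, and the values stand beside the genes above or below. Over the other fits that kept all libraries in a group, 2 further calls of named genes were lost and 5 gained, and leaving out 1 library lost 49 and gained 5, counted per gene and fit. DESeq2 gave 6190 calls and 2089 above 2-fold, and requiring 10 counts or more in each library gave 6001 and 1489. Leaving out 1 library gave 4849 (IWR-1 replicate 1) to 6778 (DMSO replicate 2) calls against DMSO. Against XAV939 it gave 2291 to 4483 calls, 987 to 2040 higher and 1304 to 2443 lower.

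List medians moved by more than the spread between pairs as follows, and the cause was not tested. With 10 counts or more required in each library they were −1.06 for immediate-early genes, −0.40 for Notch, −0.11 for fatty acid synthesis and −0.21 for fatty acid oxidation. With DESeq2 they were −0.51 for Notch, −1.0 for complement, −0.39 for metal handling, 0.01 for solute carriers, −0.03 for ion channels and 0.00 for Hox genes. With no filter they were −0.39 for Notch and metal handling, −1.01 for complement, 0.00 for solute carriers and Hox genes and −0.02 for channels. With upper-quartile normalization, which shifted the median of all genes to 0.036, they were −0.05 for fatty acid synthesis, −0.45 for aryl hydrocarbon receptor targets, 0.64 for tRNA synthetases and 0.05 for solute carriers. Leaving out 1 library gave −0.91 to −0.65 for Wnt targets, −0.70 to −0.57 for TGF-β, −0.53 to −0.40 for Notch, −0.29 to −0.12 for interferon-stimulated genes, −0.76 to −0.61 for glycolysis, −0.14 to 0.02 for fatty acid synthesis, −0.14 to −0.09 for fatty acid oxidation, −0.83 to −0.61 for NRF2, −0.87 to −0.40 for aryl hydrocarbon receptor targets, 0.56 to 0.64 for tRNA synthetases, 0.00 to 0.07 for solute carriers, −0.33 to −0.14 for channels, −0.19 to 0.02 for Hox genes and −0.29 to −0.24 for axon guidance. With 3 libraries a group, p-values rest on the spread pooled over 9 libraries.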

Other observations

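Gene families defined by symbol gave values beyond the pathways above. Of 84 tested ion channel subunits, 37 were lower and 21 higher (median log2 fold change −0.15), with 24 falls and 13 rises above 2-fold. The median was −0.33, −0.28 and −0.26 without IWR-1 replicate 2, DMSO replicate 2 or IWR-1 replicate 3, −0.03 with DESeq2 and −0.30 without the 10 members on lists of the study. *Cacna1g*, a subunit of low-voltage calcium channels, fell from 45.5 ± 5.15 to 3.55 ± 1.14 CPM (mean ± SD, n = 3), and *Kcnt2*, a potassium channel, rose from 0.785 ± 0.356 to 5.31 ± 1.07 CPM. Of 60 tested axon guidance genes, 26 were lower and 13 higher (median −0.24). The receptor *Epha8* rose from 0.13 ± 0.0896 to 3.31 ± 1.22 CPM, and the receptor *Robo3* fell from 1.6 ± 0.0724 to 0.0408 ± 0.0354 CPM. Of 82 cadherins, protocadherins and integrins, 25 were lower and 8 higher (median −0.23, or −0.37 without DMSO replicate 2 and −0.15 without DMSO replicate 1). The laminin receptor subunit *Itga7*, which overlaps *Mettl7b*, fell from 22.2 ± 2.27 to 3.12 ± 0.35 CPM, and the cadherin *Cdh19* rose from 0.846 ± 0.0989 to 5.24 ± 0.627 CPM.

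Solute carriers were called in both directions, with 62 higher and 70 lower of 246 tested (median 0.02), as were zinc finger genes with symbols that begin with Zfp, with 45 higher and 50 lower of 355 (median 0.01). The shares of solute carriers, 25.2% higher and 28.5% lower, were near the 22.2% and 25.3% of all genes tested. Those of zinc finger genes, 12.7% and 14.1%, were below them. Neither median had a clear direction, with 0.00 to 0.07 for solute carriers and −0.03 to 0.03 for zinc finger genes when 1 library was left out. The number of zinc finger genes called higher was 29 without DMSO replicate 1 and 27 without IWR-1 replicate 1. *Slc16a14*, a monocarboxylate transporter relative, rose from 0.552 ± 0.337 to 6.89 ± 1.92 CPM. *Zfp385c*, which overlaps *Nkiras2* and is on lists of the study, rose from 1.24 ± 0.643 to 10.8 ± 2.18 CPM, and *Zfp750*, which overlaps *Tbcd*, fell from 1.1 ± 0.311 to 0.0591 ± 0.0495 CPM. Hox genes, the regulators of body position, had 2 higher and 8 lower of 25. Their median of −0.13 had no stable direction, at 0.02 without DMSO replicate 2 and 0.00 with DESeq2 or no filter. The counts were 4 lower without the block and 5 without IWR-1 replicate 1, and 4 higher without DMSO replicate 1 or 2. *Hoxa4*, which overlaps *Hoxa3*, rose from 1.05 ± 0.119 to 2.16 ± 0.361 CPM. *Hoxd10*, which overlaps *Hoxd11*, had overlapping groups at 1.93 ± 0.608 and 1.04 ± 0.302 CPM (−0.84, adjusted p = 0.00348 with edgeR and 0.067 without the block).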
